A study of Mus musculus with 17 samples.

Results

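Cd28, Icos, Ctla4, Btla and Icosl were followed across CD8 T cells sorted from mouse lung tumours, as the genes of the CD28 family outside PD-1. They were taken by symbol, as 5 of the 27240 genes in the count table, and all 5 passed the filter on low counts. Cd28, Icos, Ctla4 and Btla encode receptors of the T cell. Icosl does not belong under the heading of a receptor: it encodes the B7-family ligand of ICOS and is described here as a ligand.

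The study set CD8 T cells of mice that lack PD-L1 in the endothelium (PDL1DEC, labelled KO) beside those of WT mice, to describe the phenotype of these cells in lung tumours. Cells were isolated by FACS from macroscopic nodules, called core-enriched, or from parenchymal nodules, called rim-enriched, and profiled by bulk RNA sequencing. There were 6 KO core libraries (F219, F318, F319, F322, F86 and O), 5 WT core libraries (F164, H719, H873, H876 and 1 labelled as a pool), 4 KO rim libraries (F15, F322, F86 and O) and 2 WT rim libraries (H874 and H877). The sources used here do not give the promoter behind the deletion, the tumour model, the strain, the age, any treatment or the purity of the sort. Nothing in the labels says that libraries of a group came from separate animals, so p-values measure the spread between libraries, which may be technical.

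CD28 is the constitutive co-stimulatory receptor of T cells, and ICOS is a related receptor that appears after activation and signals strongly through PI3 kinase. CTLA-4 competes with CD28 for the ligands CD80 and CD86 and restrains activation, while BTLA is an inhibitory receptor that binds HVEM, a member of the TNF receptor superfamily encoded by Tnfrsf14. In tumours these genes are read beside Pdcd1, which encodes PD-1, since chronically stimulated CD8 T cells carry several inhibitory receptors at once.

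Depth ran from 21767045 to 32566456 counts per library. Levels are counts scaled to the library total with TMM factors, in CPM. Cd8a lay between 758 and 1980 CPM over the 17 libraries and Cd4 between 3.73 and 140 CPM. The summed level of 10 T cell and CD8 identity genes was 5870 to 9210 CPM in KO core, 5000 to 9760 CPM in WT core, 7930 to 8220 CPM in KO rim and 7180 to 7230 CPM in WT rim. None of the 12 markers of dendritic cells and MHC class II was at 0 throughout a group, and their sum was 2900 to 11700 CPM in KO core, 3740 to 25000 CPM in WT core, 4510 to 8490 CPM in KO rim and 6180 to 11600 CPM in WT rim. Cd274, the gene deleted in the endothelium, averaged 138 ± 44.3 CPM in KO core and 153 ± 41.9 CPM in WT core (SD, n = 6 and 5), which in sorted T cells is no check of the deletion. By Xist and Y-linked reads both F322 and both O libraries were male, the WT core pool was mixed and the others were female.

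The 3 receptor genes Cd28, Ctla4 and Icos lie next to each other on chromosome 1 (GRCm38, GENCODE M21). Cd28 spans 60716800 to 60773359, Ctla4 60887000 to 60915832 and Icos 60977927 to 61000320, all on the plus strand, so that the cluster takes up 284 kb. Between these GENCODE spans, gaps of 114 kb and 62.1 kb separate Cd28 from Ctla4 and Ctla4 from Icos. Btla lies on chromosome 16 from 45224315 to 45257670, and Icosl on chromosome 10 from 78069302 to 78083913, also on the plus strand.

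The promoter stretches of Ctla4 and Icosl are printed because, of the members with a matched promoter, these had the most unlike patterns over the libraries (r = -0.639 between their log2 CPM). Each is the 250 bases before the RefSeq start (GRCm38.p6), 5′ to 3′ on the plus strand, at chr1:60908775-60909024 for Ctla4 and chr10:78069118-78069367 for Icosl. RefSeq and GENCODE place the start of Ctla4 differently. The Ctla4 stretch lies inside the GENCODE span of the gene (60887000 to 60915832), and which start these cells use was not tested. Promoters of 3 of the 5 members were matched (Ctla4, Btla and Icosl).
Ctla4: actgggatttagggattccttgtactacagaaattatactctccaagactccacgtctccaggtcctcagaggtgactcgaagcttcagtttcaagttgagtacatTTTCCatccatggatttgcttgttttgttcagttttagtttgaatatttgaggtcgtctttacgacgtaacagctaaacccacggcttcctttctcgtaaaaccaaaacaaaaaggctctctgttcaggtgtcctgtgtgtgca
Icosl: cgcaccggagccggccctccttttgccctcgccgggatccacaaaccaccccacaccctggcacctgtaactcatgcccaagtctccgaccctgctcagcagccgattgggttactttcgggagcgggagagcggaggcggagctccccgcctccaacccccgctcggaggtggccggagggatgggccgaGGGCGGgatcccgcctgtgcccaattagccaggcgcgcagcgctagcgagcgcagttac
Capitals mark a match to GGAAA, the core of NFAT sites, on the minus strand of the Ctla4 stretch at position -144, and a match to GGGCGG, the GC box of Sp1, in the Icosl stretch at position -59. On either strand, GGAAA occurs in 55.6% and GGGCGG in 32.7% of 32851 promoters of the same source, searched over the same 250 bases, and neither occurs in the Btla stretch. The motifs TATAAA (12.4% of promoters) and TGACTCA, the AP-1 site (4.46%), were searched likewise and had no match in the 3 stretches. The Ctla4 stretch has a GC content of 42.4% and 7 CpG, with 16.9% of promoters below it. The Icosl stretch has 68.8% and 23 CpG, with 89% of promoters below it, and the Btla stretch 47.2% and 4 CpG.

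Per kb of exon, Ctla4 was the most abundant member and Icosl the least. Ctla4 averaged 170 ± 64.7 CPM per kb in KO core, 169 ± 86.9 in WT core, 195 ± 42.5 in KO rim and 68.7 ± 1.98 in WT rim (SD, n = 6, 5, 4 and 2). Over the 17 libraries Icos averaged 99 ± 30 CPM per kb, Cd28 73.8 ± 23.5, Btla 22.9 ± 8.73 and Icosl 6.94 ± 5.32 (SD, n = 17). Pdcd1, for scale, averaged 553 CPM per kb in KO rim, its highest group, and 165 CPM per kb in WT rim, its lowest. The order Ctla4, Icos, Cd28, Btla and Icosl held in 14 of 17 libraries. Both WT rim libraries were among the exceptions: Cd28 and Icos stood above Ctla4 in H874, and Icos stood above Ctla4 in H877. KO core F318, in which Cd28 stood above Icos, was the other. The spread between libraries also differed between members. The coefficient of variation was 30.3% for Icos, 31.8% for Cd28, 38.1% for Btla, 42.9% for Ctla4 and 76.6% for Icosl, whose highest library was 10.1 times its lowest.

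**Figure D1:**
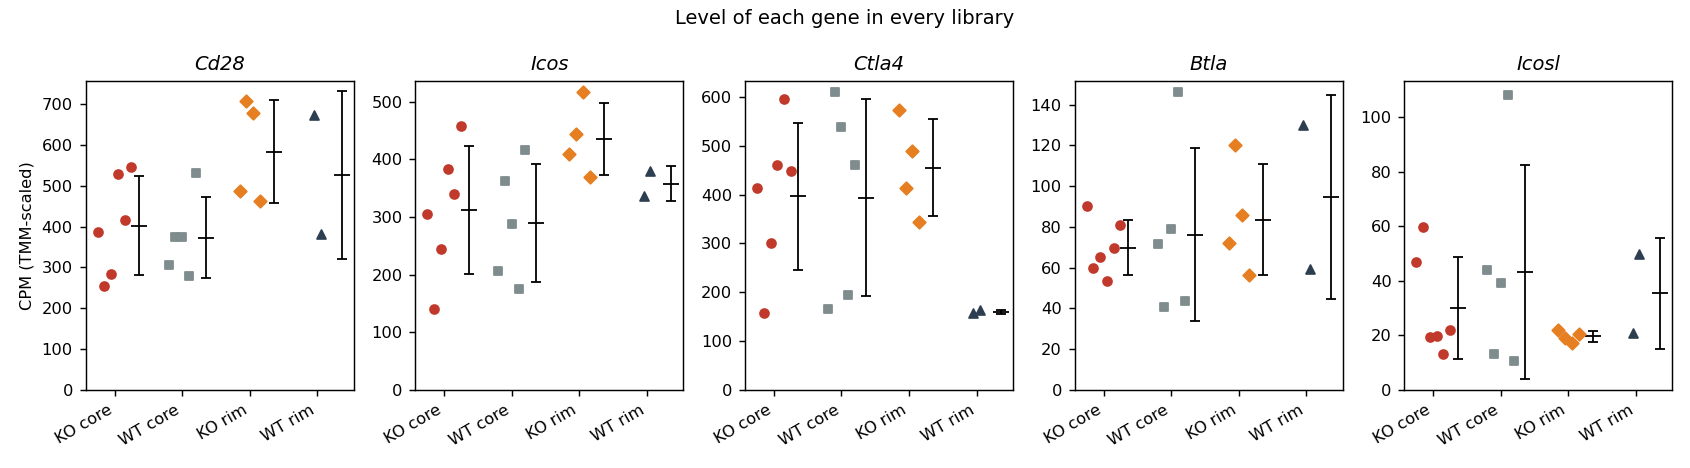
Level of each member in CPM (vertical axis) in every library, by group, with the mean ± SD. For Ctla4 all 4 KO rim libraries sit between 343 and 574 CPM, and both WT rim libraries sit at 157 and 163 CPM.

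Cd28 was lower in core than in rim libraries of both genotypes on average, without passing the test. It ranged from 255 to 546 CPM in the 6 KO core libraries, with a median of 402 CPM. The WT core libraries had 305, 375, 376, 278 and 533 CPM (F164, H719, H873, H876 and the pool). The KO rim libraries had 488, 708, 679 and 463 CPM (F15, F322, F86 and O), and the WT rim libraries 673 and 381 CPM (H874 and H877). The core and rim ranges overlapped in both genotypes: 2 KO core libraries, F322 and O, stood above KO rim O, and the WT core pool stood above WT rim H877. Core against rim, the log2 fold change of Cd28 was -0.54 in KO (SE 0.24, 95% interval -1.01 to -0.07) and -0.5 in WT (SE 0.308, -1.1 to 0.1), with edgeR adjusted p-values of 0.62 and 0.424. Without WT rim H874 the WT value was -0.03.

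Icos, the activation-induced receptor, showed the same order of groups as Cd28. It had 305, 140, 245, 384, 339 and 458 CPM in KO core (F219, F318, F319, F322, F86 and O) and 206, 363, 287, 175 and 417 CPM in WT core. The KO rim libraries had 409, 444, 517 and 369 CPM and the WT rim libraries 337 and 379 CPM. KO rim was the highest group for both genes (435 ± 62.8 CPM for Icos and 585 ± 127 CPM for Cd28), followed by WT rim (358 ± 29.7 and 527 ± 207 CPM), KO core (312 ± 111 and 403 ± 121 CPM) and WT core (290 ± 102 and 373 ± 99.1 CPM). Every neighbouring pair in that order overlapped. For Icos the log2 fold change, core against rim, was -0.48 in KO (SE 0.274) and -0.31 in WT (SE 0.353), with edgeR adjusted p-values of 0.697 and 0.707. The mean of both genotypes' core against rim effects, a contrast chosen after the values were seen, was -0.52 for Cd28 (SE 0.195) and -0.39 for Icos (SE 0.222). Their edgeR adjusted p-values were 0.131 and 0.33, while 6.37% of all genes passed that contrast. Between KO and WT the intervals were -0.34 to 0.56 (Cd28) and -0.4 to 0.61 (Icos) in core, and -0.49 to 0.79 and -0.46 to 1.01 in rim, all on the log2 scale.

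The levels of Cd28 and Icos moved together from library to library. Over the 17 libraries, the log2 CPM of both genes correlated with Pearson's r = 0.857 (permutation p = 1e-05, adjusted p = 0.00017) and Spearman's rho = 0.855 (permutation p = 4.00e-05, adjusted p = 0.0013), adjusted over 50 relations. The p of 1e-05 is the smallest that 100000 resamples can give. The resamples shuffled all 17 libraries freely, across groups and across the identifiers shared by KO core and KO rim. The correlation p-values here and below may thus be too small. Without the 2 libraries farthest from the median in Cd28, r was 0.831, and deviations from the group means gave 0.801. The log2 ratio of Icos over Cd28 accordingly averaged -0.41 ± 0.24 in KO core, -0.4 ± 0.24 in WT core, -0.41 ± 0.18 in KO rim and -0.5 ± 0.7 in WT rim. The spread in WT rim came from 2 unlike libraries, with 0.501 Icos per Cd28 CPM in H874 and 0.996 in H877. The link was not particular to this pair. Icos and Ctla4 had r = 0.621 (adjusted permutation p = 0.036) and rho = 0.483 (adjusted permutation p = 0.15), and 0.848 by deviations from the group means.

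Ctla4 was the member with the clearest separation of groups, being low in both WT rim libraries. The KO rim libraries had 574, 414, 490 and 343 CPM (F15, F322, F86 and O), all above the WT rim libraries at 157 CPM (H874) and 163 CPM (H877). KO core ran from 157 to 596 CPM with a median of 431 CPM, and WT core stood at 165, 610, 538, 195 and 461 CPM. The groups averaged 396 ± 151 CPM in KO core, 394 ± 202 CPM in WT core, 455 ± 99 CPM in KO rim and 160 ± 4.62 CPM in WT rim. WT core did not overlap WT rim either, but by only 165 CPM in F164 against 163 CPM in H877. In core, 3 libraries were as low as WT rim or nearly so, namely KO core F318 (157 CPM), WT core F164 (165 CPM) and WT core H876 (195 CPM).

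In rim tissue the fitted level of Ctla4 was 2.84 times as high in KO as in WT, or 1.51 on the log2 scale (SE 0.526, 95% interval 0.48 to 2.54). The unadjusted p of the edgeR quasi-likelihood test was 0.011 and the adjusted p 0.515, so the difference did not pass, and Ctla4 ranked 423 among 20137 genes by its p. KO rim stood wholly above WT rim in 6.86% of all genes tested, and Ctla4 was the 1 member among them. The two-sided exact permutation test over the 6 rim libraries gave p = 0.0667, the smallest that 4 against 2 libraries allow (adjusted p = 0.571 over 20 tests). In core the same contrast was 0.01 (SE 0.342, interval -0.66 to 0.68), with an adjusted p of 1. The difference between the genotype effects, rim minus core, was 1.5 (SE 0.616) with an unadjusted p of 0.0267 and an edgeR adjusted p of 0.597. Of all genes tested, 0% passed either genotype comparison, the site comparison in KO or the difference of genotype effects, so the absence of members among those calls is no property of the members.

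Within WT, Ctla4 was 2.46 times as high in core as in rim (log2 fold change 1.3, SE 0.508, 95% interval 0.3 to 2.3). The edgeR adjusted p was 0.182, and 3.86% of all genes passed this comparison. The two-sided exact permutation test over the 7 WT libraries gave p = 0.19 (adjusted p = 0.635 over 20 tests). WT core stood wholly above WT rim in 10.1% of genes, and Ctla4 was again the 1 member among them. In KO the core against rim change was -0.2 (SE 0.362, interval -0.91 to 0.51). With the 3 identifiers shared by KO core and KO rim as a fixed replicate block, it was 0.26 (SE 0.12). In all, 0 of 5 members passed in any of the 5 comparisons by edgeR. At an unadjusted p under 0.05 there was 1 member in 4 of them: Ctla4 in the rim genotype comparison, the WT site comparison and the rim minus core difference, and Cd28 in the KO site comparison. The shares of all genes at that p were 7.35% (genotype in rim), 18.0% (site in WT), 7.68% (the difference), 7.95% (site in KO) and 6.18% (genotype in core). The other member groups overlapped throughout. As background, KO core stood wholly above WT core in 0.233% of genes and below it in 0.174%, KO rim below WT rim in 6.81%, KO core above KO rim in 0.814% and below it in 0.800%, and WT core below WT rim in 9.68%. DESeq2 called 1, Ctla4 in WT core against WT rim (log2 fold change 1.29, adjusted p = 0.0488), where it called 1907 of all genes, and limma voom called 0 members.

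**Figure D2:**
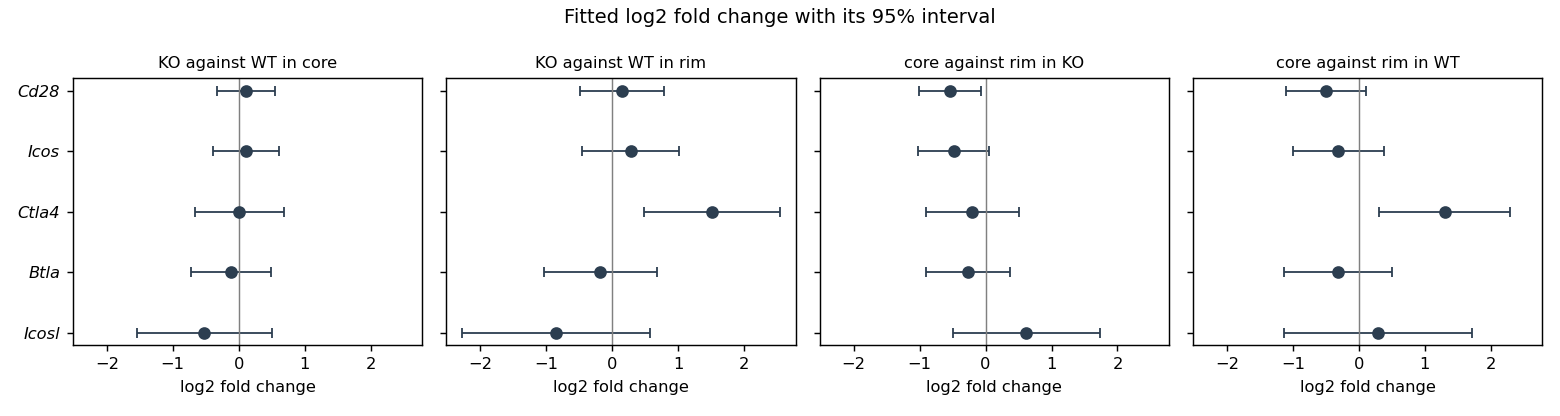
Fitted log2 fold change of each member with its 95% interval for KO against WT and core against rim. The interval of Ctla4 lies above 0 for KO against WT in rim (0.48 to 2.54) and for core against rim in WT (0.3 to 2.3), and no member passed the adjusted test.

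Ctla4 was also set against its neighbours on chromosome 1. These ratios reuse the Ctla4 levels given above, so they are no separate support for the difference. Per library, Ctla4 over Cd28 was 1.17, 0.585, 0.721 and 0.742 in KO rim (F15, F322, F86 and O), and 0.233 and 0.429 in WT rim (H874 and H877). The mean log2 ratio was -0.36 ± 0.42 in KO rim and -1.66 ± 0.62 in WT rim, a difference of 1.3 (exact permutation p = 0.0667, adjusted p = 0.356 over 16 ratio tests). It was -0.08 ± 0.42 in KO core and -0.08 ± 0.67 in WT core. Ctla4 over Icos was 1.4, 0.934, 0.947 and 0.93 in KO rim, and 0.465 and 0.431 in WT rim. Both WT rim libraries lay below all 15 others in both ratios, which share Ctla4. How often ratios of other genes do so was not counted. The difference in the log2 ratio of Ctla4 over Icos was 1.21 between KO and WT in rim (exact permutation p = 0.0667) and 1.49 between core and rim in WT (exact permutation p = 0.0476). The last is the smallest p that 5 against 2 libraries allow, and both had an adjusted p of 0.356. None of the 16 ratio tests passed.

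**Figure D3:**
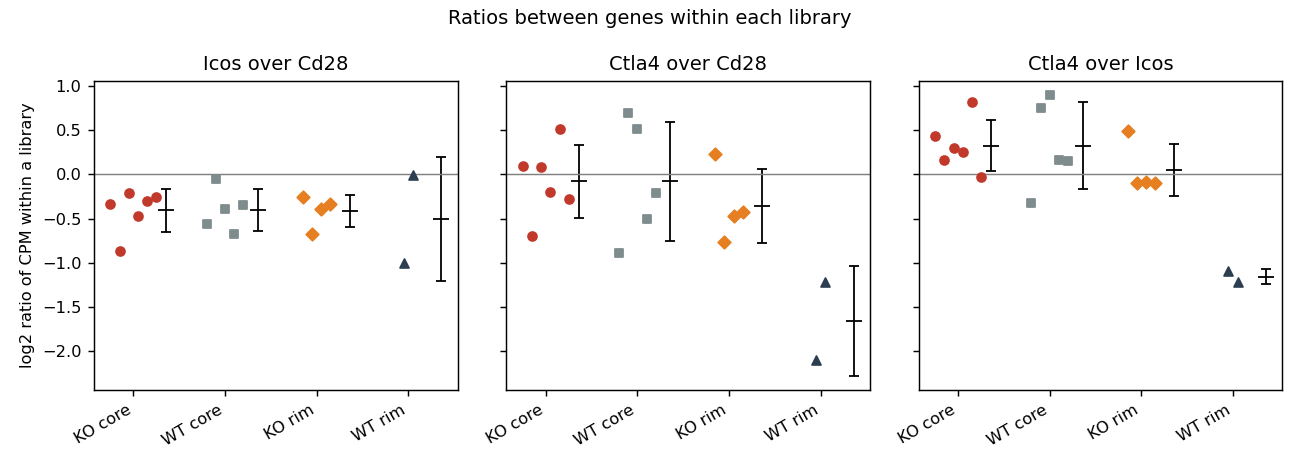
Log2 ratios between members within each library, by group, with the mean ± SD. WT rim stands lowest in Ctla4 over Cd28 (-1.66 ± 0.62) and in Ctla4 over Icos (-1.16 ± 0.08).

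Ctla4 followed Pdcd1 closely. Pdcd1 ran from 321 to 1420 CPM in KO core (median 1120 CPM) and stood at 532, 1340, 1640, 414 and 1110 CPM in WT core. It was at 1040, 1070, 1040 and 1110 CPM in KO rim and at 236 and 399 CPM in WT rim. The log2 CPM of both genes correlated with r = 0.932 (permutation p = 1e-05, adjusted p = 0.00017) and rho = 0.824 (permutation p = 8.00e-05, adjusted p = 0.0013), with r = 0.918 without the 2 libraries farthest in Ctla4. Cd28 and Pdcd1 had r = 0.28 (adjusted permutation p = 0.41) and rho = 0.245 (adjusted permutation p = 0.51). Icos and Pdcd1 had r = 0.551 (adjusted permutation p = 0.067) and rho = 0.4 (adjusted permutation p = 0.28). By deviations from the group means, r with Pdcd1 was 0.9 for Ctla4, 0.865 for Icos and 0.549 for Cd28, so within groups Icos followed Pdcd1 nearly as closely. Among 9794 genes compared over the 17 libraries, the most like Ctla4 were Sdcbp2, which encodes a syntenin (r = 0.932, rho = 0.946), Pdcd1, the inhibitory receptor gene Tigit (r = 0.895, rho = 0.755) and Il2rb, a chain of the IL-2 receptor (r = 0.88, rho = 0.765).

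The mean log2 CPM of T cell identity genes correlated with Ctla4 at r = 0.758 (adjusted permutation p = 0.0033) and rho = 0.725 (adjusted p = 0.015). With Icos it had r = 0.821 (adjusted permutation p = 0.0016) and rho = 0.681 (adjusted p = 0.027). With Cd28 it had r = 0.625 (adjusted permutation p = 0.036) and rho = 0.559 (adjusted permutation p = 0.11). For Icos, r was 0.583 without the 2 libraries farthest in its level. In the summed CPM of these genes, the 4 KO rim libraries, at 7930 to 8220 CPM, stood above both WT rim libraries, at 7230 CPM (H874) and 7180 CPM (H877). In bulk samples fewer cells of a type and less RNA per cell cannot be told apart. A further fit scaled libraries to Cd3d, Cd3e, Cd3g, Cd247, Cd8a and Cd8b1 of the T cell identity genes in place of TMM. With that scaling, the log2 fold change of Ctla4 in KO against WT in rim was 1.28 (edgeR adjusted p = 0.465). The 3 core libraries low in Ctla4 (KO core F318, WT core F164 and WT core H876) were also the 3 lowest in T cell identity genes, at 5870, 6410 and 5000 CPM. Over all alternatives but a fit without these 3, the adjusted p of Ctla4 ran from 0.086 to 0.838 for KO against WT in rim and from 0.0488 to 0.592 for core against rim in WT.

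Transcripts of other cell types differed in the same comparison. In KO against WT in rim, 13 of 14 macrophage and monocyte markers had a positive log2 fold change, with a median of 1.17. So did 10 of 11 markers of lung epithelium and tumour, with a median of 1.73, against 0.01 for all genes. Other lists went the other way: 12 of 12 dendritic cell and MHC class II markers were negative (median -0.56), and 11 of 12 B and plasma cell markers (median -0.58). Of 8 endothelial markers, 4 were positive and 4 negative. In each of these lists 0 passed the adjusted test. The macrophage markers summed to 1440 to 8530 CPM in KO rim and 1660 to 3240 CPM in WT rim, and the epithelial markers to 118 to 754 CPM in KO rim and 81.8 to 329 CPM in WT rim. With the level of other cell types as a covariate, the log2 fold change of Ctla4 was 1.53 (edgeR adjusted p = 0.431). That covariate was the mean log2 CPM of the B cell, macrophage, dendritic cell, epithelial and endothelial markers together. It ran from 3.15 to 5.53 in KO rim and was 3.83 and 4.52 in WT rim. Being 1 mean over lists that moved in opposite directions, it cannot adjust for the macrophage or epithelial markers by themselves. Over the 17 libraries the mean log2 CPM of the macrophage markers had r = 0.00663 with Ctla4 (adjusted permutation p = 0.98) and rho = -0.0662 (adjusted permutation p = 0.82).

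Regulatory T cells also carry Ctla4, so their defining gene was read beside it. Foxp3 was at 1.81 to 8.41 CPM in KO core, 1.82 to 10.1 CPM in WT core, 0 to 3.61 CPM in KO rim and 0.133 and 2.96 CPM in WT rim. KO rim F86 had Foxp3 at 0 and Ctla4 at 490 CPM. In the same library Cd4 stood at 60.9 CPM, the highest of KO rim. The 8 CD4 and regulatory T cell markers summed there to 193 CPM, also the highest of KO rim. The mean log2 CPM of 8 CD4 and regulatory T cell markers had r = 0.067 with Ctla4 (adjusted permutation p = 0.85) and rho = 0.0343 (adjusted permutation p = 0.9). Those 8 markers summed to 142 to 271 CPM in KO core, 171 to 256 CPM in WT core, 140 to 193 CPM in KO rim and 92.7 to 212 CPM in WT rim. In KO against WT in rim 6 of the 8 had a positive log2 fold change (median 0.35) and 0 passed. In core against rim in WT 5 of 8 did (median 0.8), and Il2ra, which is also on the list of transcripts that follow CD28, passed. For the difference of the genotype effect 7 of 8 did (median 0.95) and 0 passed. The part of these markers in the levels of Ctla4 was not tested.

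Btla, the other inhibitory receptor, was less abundant than the receptor genes on chromosome 1. It had 53.4 to 90.2 CPM in KO core, with a median of 67.3 CPM, and 71.6, 40.6, 78.9, 146 and 43.4 CPM in WT core. The KO rim libraries had 72.3, 120, 85.6 and 56.2 CPM and the WT rim libraries 130 and 59.3 CPM. WT core H876 was the highest library, and all groups overlapped. The largest fitted change was -0.32 for core against rim in WT (SE 0.418, edgeR adjusted p = 0.753). KO against WT gave -0.12 in core (95% interval -0.73 to 0.48) and -0.18 in rim (-1.04 to 0.67). B cells also carry Btla, and the 12 B and plasma cell markers summed to 206 to 4050 CPM in KO core, 539 to 2460 CPM in WT core, 354 to 1480 CPM in KO rim and 843 to 992 CPM in WT rim. Their mean log2 CPM had r = 0.239 with Btla (adjusted permutation p = 0.51) and rho = 0.336 (adjusted permutation p = 0.34). The genes most like Btla were Etv3, an ETS-family transcriptional repressor (r = 0.815, rho = 0.674), Avpi1 (r = 0.808, rho = 0.777), the mitochondrial membrane protein gene Tmem11 (r = 0.792, rho = 0.561) and Commd8 (r = 0.769, rho = 0.61).

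Icosl, the ligand, was low in most libraries and high in a few. It ran from 13 to 59.8 CPM in KO core, with a median of 20.7 CPM, and stood at 44.1, 13.3, 39.3, 108 and 10.7 CPM in WT core. The KO rim libraries had 21.8, 19, 17.2 and 20.4 CPM and the WT rim libraries 20.9 and 49.8 CPM. The highest library was WT core H876, followed by KO core F318 (59.8 CPM), WT rim H877 (49.8 CPM) and KO core F219 (47 CPM), so each of 3 groups held both high and low libraries. KO against WT gave a log2 fold change of -0.52 in core (SE 0.519, 95% interval -1.54 to 0.5) and -0.85 in rim (SE 0.727, -2.27 to 0.58), with edgeR adjusted p-values of 1 and 0.795. Without WT core H876 the core value was 0.15, so its sign rested on that library, and without WT rim H877 the rim value was -0.07.

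The high Icosl libraries were those with high MHC class II. WT core H876 had a dendritic cell and MHC class II sum of 25000 CPM and H2-Ab1, a chain of the class II molecule, at 5380 CPM. In KO core F318 and F219 the sum was 11700 CPM each, and in WT rim H877 it was 11600 CPM. Over the 17 libraries, Icosl and the mean log2 CPM of those markers had r = 0.842 (permutation p = 5.00e-05, adjusted p = 0.00062) and rho = 0.789 (permutation p = 0.00029, adjusted p = 0.0036). Without the 2 libraries farthest in Icosl, r was 0.715. With the mean log2 CPM of the T cell identity genes, Icosl had r = -0.939 (permutation p = 1e-05, adjusted p = 0.00017) and rho = -0.853 (permutation p = 7.00e-05, adjusted p = 0.0013). Without the farthest 2, r was -0.898. Deviations from the group means gave 0.829 and -0.934. Other relations of Icosl also had an adjusted p under 0.05. The mean log2 CPM of the endothelial markers had rho = 0.652 (adjusted permutation p = 0.038) and r = 0.397 (adjusted permutation p = 0.25). Icosl had r = -0.709 with Icos, -0.639 with Ctla4 and -0.614 with Cd28 (adjusted permutation p = 0.011, 0.035 and 0.039). There, rho was -0.544, -0.637 and -0.515 (adjusted permutation p = 0.11, 0.045 and 0.12). The genes most like Icosl were Scarb1, a receptor for high-density lipoprotein (r = 0.955, rho = 0.885), Napsa, an aspartic protease (r = 0.93, rho = 0.767), Lyn, a Src-family kinase of B and myeloid cells (r = 0.914, rho = 0.863), and Etv6, an ETS-family repressor (r = 0.911, rho = 0.868). Napsa is also on the list of lung epithelium and tumour markers. The mean log2 CPM of that list had r = 0.0379 with Icosl (adjusted permutation p = 0.92) and rho = 0.132 (adjusted permutation p = 0.75).

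**Figure D4:**
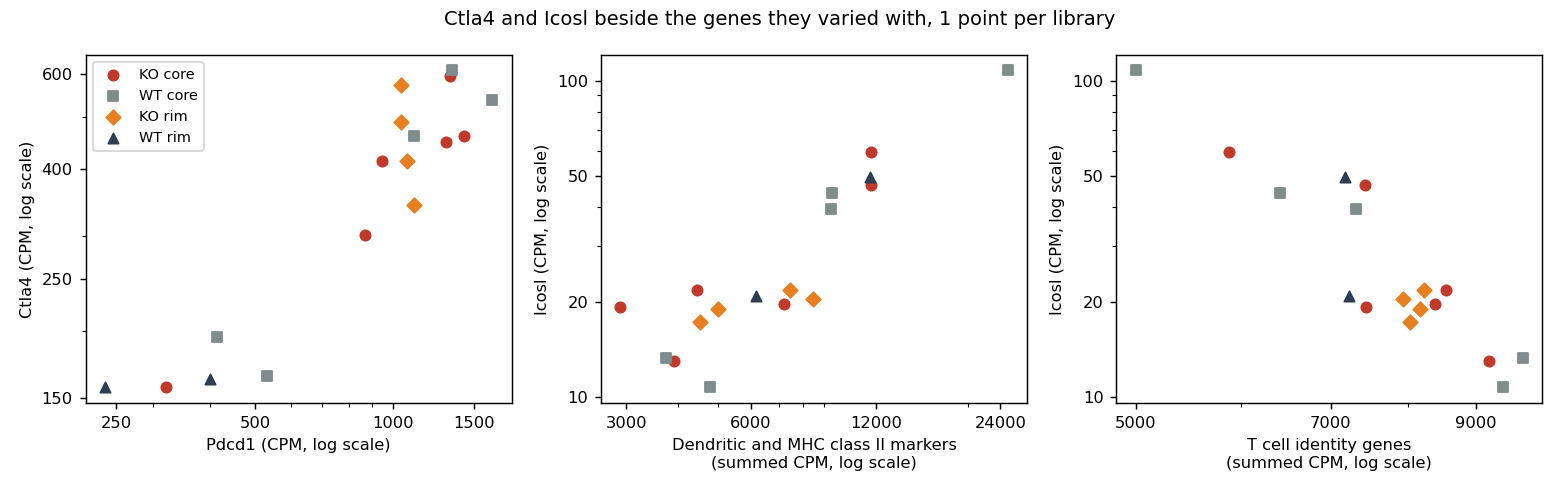
Ctla4 against Pdcd1, Icosl against the summed dendritic cell and MHC class II markers, and Icosl against the summed T cell identity genes, 1 point per library, both axes in CPM on a log scale. Ctla4 rises with Pdcd1 (r = 0.932), and Icosl rises with the class II sum and falls with the T cell sum. With the mean log2 CPM of the same markers, in place of the sums drawn, Icosl had r = 0.842 and r = -0.939.

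Cd28 and Icos had 1 neighbour in pattern in common, Themis. Among the genes most like Cd28 were Pde4d, a phosphodiesterase of cyclic AMP (r = 0.909, rho = 0.868), Themis, a signalling protein of the T cell receptor (r = 0.888, rho = 0.895), and Ms4a6b (r = 0.88, rho = 0.897). For Icos they were Themis (r = 0.866, rho = 0.75), the adhesion receptor gene Cd2 (r = 0.865, rho = 0.762), Cd8b1 (r = 0.862, rho = 0.625) and Cd28.

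The partners of the receptors were read from a list of 5 genes. Cd80 and Cd86, the ligands shared by CD28 and CTLA-4, averaged 17 and 96.5 CPM in KO core, 19.3 and 95.7 CPM in WT core, 13.2 and 86.4 CPM in KO rim, and 17.3 and 75.8 CPM in WT rim, and neither passed in any comparison. Tnfrsf14, the partner of BTLA, averaged 134 CPM in KO core, 130 CPM in WT core, 142 CPM in KO rim and 103 CPM in WT rim. Tnfsf14, a further ligand of HVEM, averaged 9.95 CPM in KO core, 9.68 CPM in WT core, 7.61 CPM in KO rim and 3.85 CPM in WT rim, with log2 fold changes of 1.33 for core against rim in WT (SE 0.425, edgeR adjusted p = 0.0956) and 0.98 for KO against WT in rim (SE 0.428, edgeR adjusted p = 0.646). Cd160, a further receptor for HVEM, rose in core against rim in WT. It had 207, 244, 363, 192 and 227 CPM in WT core, against 35.9 and 88.6 CPM in WT rim. This was a difference of 1.99 on the log2 scale (SE 0.324, edgeR adjusted p = 0.00563). In KO it ran from 190 to 300 CPM in core and stood at 128, 108, 148 and 140 CPM in rim. The KO groups did not overlap, and the difference of 0.78 on the log2 scale (SE 0.227) did not pass (edgeR adjusted p = 0.62). In rim, KO against WT gave 1.07 for Cd160 (SE 0.313, edgeR adjusted p = 0.392), with all 4 KO libraries above both WT libraries.

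Downstream of the receptors, 43 further genes in 3 lists covered proximal signalling of CD28 and ICOS (20 genes), phosphatases and trafficking of CTLA-4 and BTLA (11 genes) and transcripts known to follow CD28 co-stimulation (12 genes). With the 5 partners they make 48, and 0 of 48 passed the genotype comparison in core or rim, the site comparison in KO, or the rim minus core difference. At an unadjusted p under 0.05 there were 2, 7, 6 and 5 of 48, beside 6.18%, 7.35%, 7.95% and 7.68% of all genes. In core against rim in WT there were 15 of 48 at that p, beside 18.0% of all genes. There, by the adjusted test, 2 of 48 rose and 4 fell, against 2.10% and 1.76% of all genes tested. Il2ra, the inducible chain of the IL-2 receptor, rose with Cd160, at 36.8, 44.3, 40.1, 49.2 and 79.6 CPM in WT core and 8 and 15.3 CPM in WT rim (log2 fold change 2.10, SE 0.478, edgeR adjusted p = 0.024). The adaptor gene Grap2 fell by 0.9 on the log2 scale (edgeR adjusted p = 0.026) and Bcl10, of the complex that leads to NF-kappaB, fell by 0.65 (adjusted p = 0.0429). The kinase gene Tbk1 fell by 0.58 (edgeR adjusted p = 0.0138) and the AP-1 gene Junb by 0.67 (adjusted p = 0.0403). Of the phosphatase and trafficking genes 0 of 11 passed. The median log2 fold change was -0.22 for proximal signalling, 0.08 for phosphatases and trafficking and 0.15 for the transcripts that follow CD28, against 0.03 for all genes.

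The calls varied with the fit more than the fold changes did. Without WT rim H874, and in a fit of the 2 WT groups alone, 0 of the 48 genes were called. Calls among all genes were then 68 and 91. Without H874 the log2 fold changes of the 6 kept their sign, at 1.47 for Cd160, 1.70 for Il2ra, -0.61 for Grap2, -0.38 for Bcl10, -0.62 for Tbk1 and -0.35 for Junb. DESeq2 called 13 of the 48, and edgeR with scaling to T cell identity genes called 3. Macrophage transcripts moved with the same comparison: C1qb had a mean of 247 ± 107 CPM in WT core and 22.6 ± 8.92 CPM in WT rim, and the 14 macrophage and monocyte markers summed to 2480 to 7680 CPM in WT core and 1660 to 3240 CPM in WT rim. Of these 14, 2 passed (C1qb and C1qc, both higher in core). Their part in the changes of Cd160, Il2ra and the signalling genes was not tested.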

How the data were processed

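RNA of FACS-isolated CD8 T cells was extracted with the Qiagen RNeasy Micro Kit and made into TruSeq RNA libraries, per the labels' protocols. The authors deposited raw counts per gene symbol for 17 libraries, with no normalization. HISAT2, featureCounts, Subread 2.0.0, Bowtie2 2.4.5 and cutadapt 3.2 are named, with GRCm38 and mm10 but no order or settings, in the submitters' processing notes. Strandedness is not given in the sources used here, so antisense reads cannot be told from sense reads.

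In R 4.3.3, filterByExpr over the 4 groups left 20137 genes. edgeR 4.0.16 (TMM factors, robust quasi-likelihood F test, 1 fit over all 17 libraries, no covariates) gave log2 fold changes, with Benjamini-Hochberg adjusted p-values over the genes tested and a threshold of 0.05. WT rim, with 2 libraries, shares the spread of the other groups. The SE is the log2 fold change divided by the square root of F, and 95% intervals are normal. Differences of log2 CPM (prior count 2) and ratios were tested by two-sided exact permutation over libraries, adjusted over 20 and 16 tests, and correlations with 100000 resamples. Levels per kb use the exon union of GENCODE M21. Outside the members, genes named are list genes that passed or that a result turns on, and the 4 genes most like each member by Pearson's r with a mean of at least 5 CPM. For Cd28, 1 of these is not reported here. The members, lists and tests were chosen with earlier results of these data known. The test was run on simulated counts in which 100 genes changed 2-fold and 100 changed 4-fold. Of the 2-fold changes it recovered 16% for KO against WT in rim and 22% for core against rim in WT. The shares were 52% for KO against WT in core and 45% for core against rim in KO. Of the 4-fold changes it recovered 77%, 79%, 96% and 91% in the same order. A 2-fold change that involves WT rim would thus mostly be missed.

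Identifiers F322, F86 and O recur in KO core and KO rim. Their deviations from the group means correlated at 0.072, 0.045 and 0.082, which cannot exclude that an identifier marks the same animal at both sites. Sex by reads was the same at both sites for each (F322 and O male, F86 female). The main fit did not pair libraries, and fits with the identifiers as a block were run as alternatives. No 2 libraries of a group were duplicates. Alternatives were DESeq2 1.42.0, upper quartile factors, scaling to T cell identity genes, no filter, fits of the compared groups alone, limma 3.58.1 voom with a replicate block, female libraries alone, a covariate of other cell types, and leaving out each library. Scaling to T cell identity genes used Cd3d, Cd3e, Cd3g, Cd247, Cd8a and Cd8b1 of the list.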

Additional observations from a re-analysis of the deposited data

Results flagged for a closer look

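Of 27 groups of values examined for a single library far from the others, 1 stood out, where chance alone is known to mark about 1 in 20. In KO rim the log2 ratio of Ctla4 over Icos was 0.49 in F15, the highest of the 4 libraries, and -0.1, -0.08 and -0.1 in F322, F86 and O. The gap to the nearest library made up 0.957 of the group's whole range. F15 also had the highest Ctla4 of KO rim, at 574 CPM.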

How the results depend on the processing

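Members called were 0 in every comparison under the alternatives run, except 1 (Ctla4) in core against rim in WT by DESeq2, and 1 (Ctla4) each in KO against WT in rim and core against rim in WT without the 3 libraries lowest in T cell identity genes. Those 3 are also the core libraries lowest in Ctla4, so the last calls follow from the choice of libraries and support nothing. Ctla4 stayed positive in KO against WT in rim (1.28 to 1.73) and in core against rim in WT (1.03 to 1.76).

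Genes called among all tested depended on the tool, where the main counts were 0 (KO against WT in core), 0 (in rim), 0 (core against rim in KO), 777 (in WT) and 0 (difference of the genotype effect). DESeq2 gave 9, 269, 35, 1907 and 160, with 1 pathway gene in KO against WT in rim and 13 in core against rim in WT. Scaling to T cell identity genes gave 14 in KO against WT in rim, 265 with 3 pathway genes in core against rim in WT, and 9 for the difference. No filter gave 2 and 4 in KO against WT in rim and the difference. Fits of 2 groups gave 91 genes and 0 pathway genes in core against rim in WT, and female libraries 313. Without the 3 libraries lowest in T cell identity genes there were 21 in KO against WT in rim and 16 for the difference. The labels do not say whether shared identifiers mark animals, and the deviations of same-identifier libraries correlated under 0.1, which does not settle it. In F322, F86 and O, Ctla4 was 0.15, 0.28 and 0.39 higher in core on the log2 scale. Taken as a replicate block, the identifiers in limma voom gave 8 in KO against WT in rim and 2 in core against rim in KO. It turned Btla in KO against WT in core to 0.01 and Icosl in core against rim in WT to -0.02. As a fixed replicate block on the 3 shared identifiers, core against rim in KO was 0.26 for Ctla4 and -0.1 for Icosl, and called 0 members.

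The other changes of sign concerned members that did not pass. In KO against WT in core, Ctla4 was -0.01 with upper quartile factors, 0 in the fit of 2 groups, -0.04 in female libraries, -0.03 with the covariate and -0.28 without the 3 libraries. There, Icos was 0 in female libraries and -0.05 without the 3, and Btla was 0.39 and Icosl 0.18 without the 3. Icos in core against rim was 0 in WT without the 3 and -0.18 in KO with the fixed block. Icosl in core against rim in WT was -0.24 with the covariate and -0.73 without the 3. With T cell scaling Cd28 was -0.06 in KO against WT in rim, and the difference was -0.12 for Cd28, -0.04 for Icos and 0 for Btla. The cause was not tested.

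Leaving out 1 library gave, in KO against WT in core, 0 to 0.26 for Cd28, -0.04 to 0.27 for Icos, -0.2 to 0.24 for Ctla4, -0.29 to 0.24 for Btla and -0.82 to 0.15 for Icosl. In KO against WT in rim it gave 0 to 26 genes, 0 to 1 pathway gene (Cd160 without WT rim H877), -0.19 to 0.61 for Cd28, -0.63 to 0.49 for Btla and -1.35 to -0.07 for Icosl. In core against rim in WT it gave 68 to 851 genes, 0 to 8 pathway genes, -0.84 to -0.03 for Cd28, -0.76 to 0.36 for Btla and -0.38 to 1.07 for Icosl. For the difference it gave 0 to 14 genes, -0.3 to 0.5 for Cd28, -0.49 to 0.63 for Btla and -1 to 0.46 for Icosl. With 2 WT rim libraries, exact tests in rim cannot reach 0.05.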
